A study of Sus scrofa domesticus with 28 samples.

Results

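The 7 genes described here, IFIH1, IRF9, IFIT1, OAS2, ISG15, CXCL10 and TAP1, are induced by interferons in mammalian cells. They were found by matching the RefSeq accession of each array probe to the pig gene, which gave 15 of 43603 probes. For each of the 7 genes the brightest probe was used, and that probe was well above background in the biopsy channel on 28 of 28 arrays. The genes were chosen by name and function, with earlier results of these data known.

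Interferons are secreted when cells detect foreign or misplaced nucleic acid, and when lymphocytes are activated. Type I interferons act through the receptor chains IFNAR1 and IFNAR2 and the kinases JAK1 and TYK2, which activate transcription factors such as STAT2. STAT2 works with IRF9 in the complex that switches on antiviral genes, while type II interferon mainly raises chemokines and antigen presentation genes. In skin, keratinocytes, fibroblasts, endothelial cells and leukocytes can all respond.

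The 28 arrays each hold RNA from 1 skin biopsy, labelled with Cy5, against a universal pig reference RNA labelled with Cy3. The biopsies came from 2 juvenile castrated male red Duroc pigs, numbered 49 and 50, a breed used as a model of thick, raised scars, and the pigs are the same in every group. The control group had 4 biopsies of skin, which the labels do not describe further. Early scar had 8 biopsies, all labelled sham, 4 from hyperpigmented and 4 from hypopigmented scar. Mid and late scar each had 4 sham and 4 pressure biopsies, with 2 hyperpigmented and 2 hypopigmented in each. In mid and late scar all 8 pressure biopsies came from the right side and all 8 sham biopsies from the left side, so pressure and side cannot be told apart there. The labels do not say what the sham or pressure treatment consisted of. Biopsies are named here by animal and side, for example 49L.

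The number of probes with Cy5 well above background ranged from 13709 to 24300 of 43603 over the arrays, with a median of 20325 (46.6%). The dimmest array was the late sham hypopigmented biopsy 50L, on which all 7 genes were still well above background. Late sham arrays had 13709 to 18867 such probes and early sham arrays 19598 to 24165, so these groups did not overlap. Late pressure arrays had 14786 to 20529. The part of array signal in the differences between groups was not tested. Markers of skin were present: the cornified envelope gene IVL was above background on 26 of 28 arrays and the dermal genes COL1A2, DCN and LUM on 28 of 28. The melanocyte gene TYR was above background on 12 of 28. Values are log2 ratios of biopsy to reference, so 0 means a level equal to the reference RNA, and levels of different genes cannot be compared with each other. In a biopsy, more cells of a responding type and more RNA per cell cannot be told apart. Differences are given ± SE, and adjusted p (limma, Benjamini-Hochberg) covers 18768 features with a threshold of 0.05. All biopsies came from 2 pigs, so p cannot show how pigs at large vary. Each mid and late set of a treatment and pigmentation held a single biopsy of either pig. Spread between biopsies and between the 2 pigs is therefore mixed there.

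The first question was how these genes behaved as scar aged. In late sham scar 5 of the 7 genes were higher than in early sham scar: IFIT1, ISG15, IFIH1, CXCL10 and TAP1, by 1.62-fold to 3.26-fold. None fell, and OAS2 and IRF9 did not pass the threshold. Among all features 19.9% were called in this comparison, with 1812 higher and 1923 lower. The median difference of the 7 genes was 1.04, against 0.03 for all features. Mid and late sham biopsies all came from the left side and early ones from both sides, so side is unbalanced here. In early scar the left mean was above the right for all 7 genes, for example -0.89 against -1.52 for CXCL10. The part of side in the rise was not tested. With late pressure scar in place of late sham scar 0 of 7 passed against the same early biopsies, in a fit that called 20.2% of all features. Differences were larger in animal 49 than in animal 50 for all 7 genes, though 0 of 7 passed the test of that difference.

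**Figure D1:**
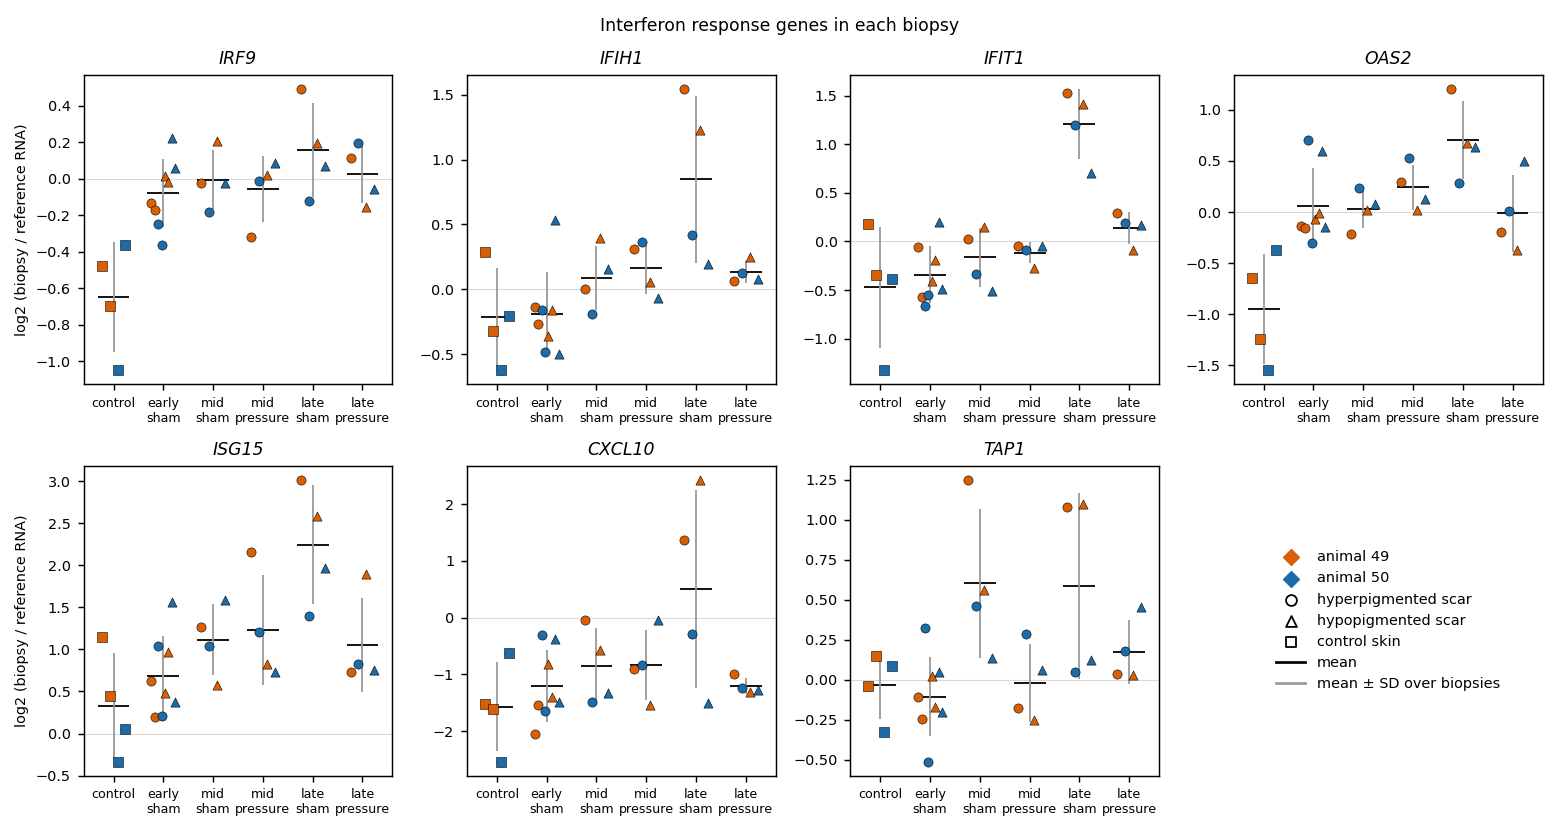
Log2 ratio of biopsy to reference RNA (vertical axis) for each of the 7 genes in 28 biopsies, grouped by phase and treatment; colour gives the animal, shape the pigmentation, the black line the mean and the grey line ± SD over the biopsies of a group. The late sham biopsies of animal 49 (orange) stand highest for IFIT1, ISG15, IFIH1 and CXCL10, while late pressure biopsies lie within the range of early scar for IRF9 and CXCL10.

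IFIT1 encodes a protein that binds viral RNA lacking a host cap structure and blocks its translation. Its log2 ratio was 1.53 and 1.42 in the late sham biopsies of animal 49 (hyper and hypo) and 1.20 and 0.71 in those of animal 50. In early sham scar it ran from -0.66 to 0.20 with a median of -0.45. All 4 late sham biopsies were above all 8 early biopsies, the only member for which these groups did not overlap. Of all features 3.11% had late sham above early sham in every biopsy. The difference was 1.56 ± 0.20, 2.94-fold (adjusted p = 3.26e-04), and it stayed between 1.43 and 1.68 when any 1 of the 12 arrays was left out. In mid sham scar the 4 values were 0.03, -0.33, 0.15 and -0.51, and in mid pressure scar -0.05, -0.09, -0.27 and -0.04. Mid scar thus lay within the range of early scar. Late sham scar was also above mid sham scar in every biopsy, and 0.879% of all features showed that. The other such member was OAS2.

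ISG15 encodes a small ubiquitin-like protein that is attached to newly made proteins in interferon-treated cells. In late sham scar it was at 3.02 and 2.59 in animal 49 and at 1.40 and 1.97 in animal 50. Early sham values ran from 0.20 to 1.57 with a median of 0.55. Late sham biopsies exceeded all early ones in 3 of 4 cases, with the remaining one, 50L hyper, inside the early range. The difference was 1.56 ± 0.31, 2.95-fold (adjusted p = 0.0027). In mid scar only the means lay between, at 1.12 in sham and 1.23 in pressure biopsies. Single values were 1.27, 1.04, 0.58 and 1.58 in sham and 2.16, 1.20, 0.83 and 0.73 in pressure biopsies, overlapping both early and late sham scar. ISG15 was not called in mid against early sham scar (adjusted p = 0.431).

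IFIH1 encodes MDA5, a cytosolic sensor of long double-stranded RNA that triggers interferon production. Its ratio was 1.55 and 1.22 in late sham biopsies of animal 49 but 0.42 and 0.20 in those of animal 50. Early sham scar ran from -0.50 to 0.53 with a median of -0.21. Only the biopsies of animal 49 exceeded the early range, and those of animal 50 lay inside it. Over both animals the difference was 1.04 ± 0.20, 2.06-fold (adjusted p = 0.0025). Mid scar stayed inside the early range, from -0.19 to 0.39 in sham and from -0.07 to 0.36 in pressure biopsies.

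CXCL10 encodes a chemokine that draws T and NK cells bearing the receptor CXCR3. It had the widest spread of the 7 genes in late sham scar, with an SD of 1.74 over 4 biopsies. The values were 1.36 and 2.43 in animal 49, and -0.28 and -1.50 in animal 50. Early sham scar ran from -2.05 to -0.31 with a median of -1.44. The late sham hypo biopsy 50L thus lay below the early median while both of animal 49 lay above every other biopsy in the study. The difference was 1.70 ± 0.53, 3.26-fold (adjusted p = 0.0304), and it missed the threshold in 6 of 12 fits with 1 array removed. Without the late sham hypo biopsy 49L it was 0.73 (adjusted p = 0.30), and without the late sham hyper biopsy 49L it was 1.35 (adjusted p = 0.139). Without 1 of the early sham biopsies hyper 49L, hyper 49R, hypo 50R or hypo 49R it was 1.56 to 1.65, with adjusted p from 0.0513 to 0.0546. CXCL10 in mid scar was at -0.03, -1.49, -0.57 and -1.32 in sham and -0.91, -0.84, -1.54 and -0.05 in pressure biopsies, all below the late sham biopsies of animal 49.

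TAP1 encodes a subunit of the transporter that carries peptides into the endoplasmic reticulum for loading on class I molecules. In late sham scar it was 1.08 and 1.096 in animal 49, against 0.05 and 0.12 in animal 50. In early sham scar it ran from -0.51 to 0.33 with a median of -0.14. The biopsies of animal 50 did not leave the early range. The difference was 0.69 ± 0.21, 1.62-fold (adjusted p = 0.0247), and it missed the threshold without late sham hyper 49L (0.45, adjusted p = 0.168) and without late sham hypo 49L (0.47, adjusted p = 0.162). TAP1 was the 1 member called in mid sham against early sham scar, where 6.45% of all features were called. Its mid sham values were 1.25, 0.46, 0.56 and 0.14, and 3 of these 4 exceeded all early values. That difference was 0.71 ± 0.21 (adjusted p = 0.046), but with 1 array removed it missed the threshold in 9 of 12 fits. It held without early sham hyper 50L, early sham hypo 50L or mid sham hypo 50L, and without each of the other 9 biopsies the value was 0.53 to 0.88 with adjusted p from 0.0624 to 0.233. The other 6 genes ranged from -0.03 to 0.43 in that comparison.

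OAS2 encodes an enzyme that makes 2-5A, the activator of the RNA-degrading enzyme RNase L. Its late sham values were 1.21 and 0.67 in animal 49 and 0.28 and 0.64 in animal 50, against -0.30 to 0.70 in early sham scar with a median of -0.10. A single late sham biopsy, 49L hyper, exceeded the early range. The difference of 0.64 ± 0.23 missed the threshold (adjusted p = 0.0559), and it passed without early sham hyper 50L (0.74, adjusted p = 0.0294), early sham hypo 50L (0.72, adjusted p = 0.0373) or late sham hyper 50L (0.93, adjusted p = 0.0214). IRF9, the DNA-binding subunit of the type I interferon transcription complex, moved least. It was 0.49 and 0.20 in animal 49 and -0.12 and 0.07 in animal 50, against -0.36 to 0.22 in early sham scar. The difference was 0.24 ± 0.13 (adjusted p = 0.184).

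**Figure D2:**
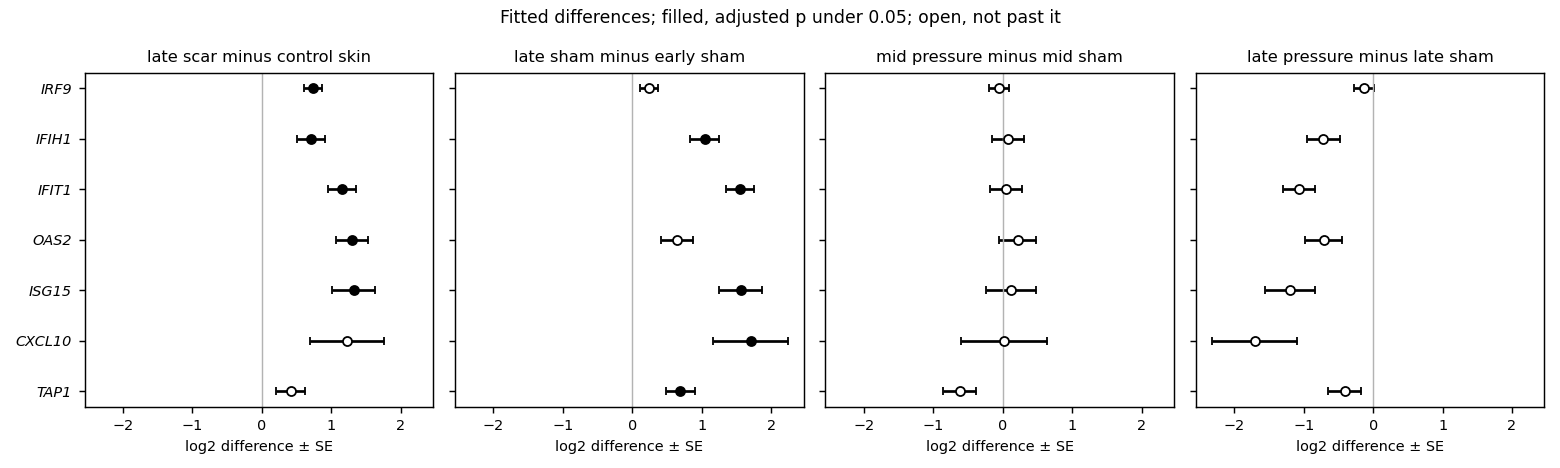
Fitted log2 difference ± SE (horizontal axis) of each gene in 4 comparisons; filled points passed an adjusted p of 0.05 and open points did not. Late sham minus early sham lies from 0.24 to 1.70, mid pressure minus mid sham lies near 0 for every gene but TAP1, and late pressure minus late sham is below 0 for all 7 genes, none past the threshold.

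The highest late values came from 1 side of 1 animal. The late sham hyper biopsy 49L ranked first of 28 biopsies for 5 of the 7 genes and within the top 3 for all 7. The late sham hypo biopsy 49L was within the top 3 for 6 of them. The mean over the 7 genes was 1.46 and 1.37 in these biopsies, 0.42 and 0.32 in the late sham biopsies of animal 50, and at most 0.40 in early scar. Without both 49L biopsies 1 gene was called, IFIT1 (1.40, adjusted p = 0.00853), along with 11.5% of all features. ISG15 was then 1.096 (adjusted p = 0.0745), IFIH1 0.55, CXCL10 0.26 and TAP1 0.19.

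Within animal 49 the late minus early difference was 3.34 for CXCL10, 2.23 for ISG15, 1.78 for IFIT1, 1.62 for IFIH1, 1.21 for TAP1, 1.03 for OAS2 and 0.42 for IRF9. Within animal 50 it was 0.06, 0.89, 1.33, 0.46, 0.17, 0.25 and 0.06 for the same genes in that order. All 7 genes were higher in both animals, and all 7 differences were smaller in animal 50. The test of this difference between animals called 0 of 7 genes and 0% of all features. At an unadjusted p under 0.05 it had 4 of the 7 genes and 1740 features. The largest was CXCL10, at -3.28 ± 0.71 for animal 50 minus animal 49 (unadjusted p = 1.98e-04, adjusted p = 0.231). For IFIT1 it was -0.45 ± 0.37 (adjusted p = 0.759).

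**Figure D3:**
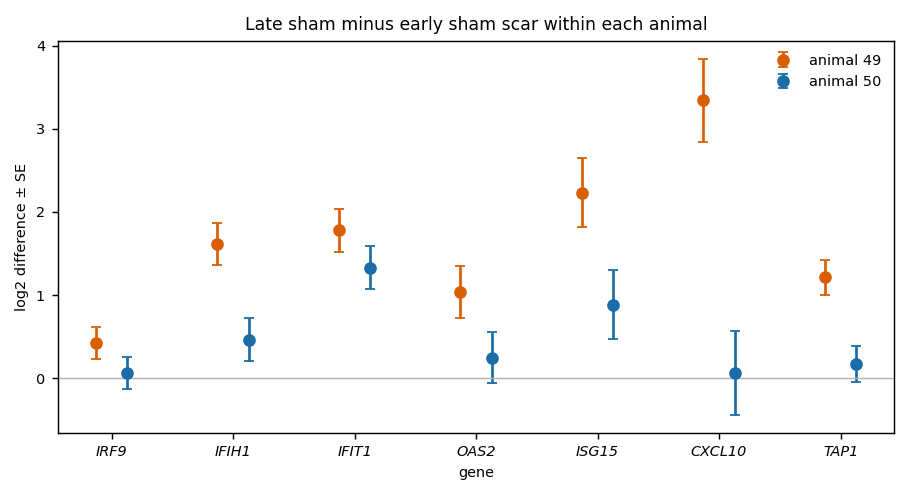
Log2 difference ± SE (vertical axis) of late sham minus early sham scar for each gene within animal 49 and animal 50, from 2 late and 4 early biopsies each. CXCL10 differs most between the animals, at 3.34 and 0.06, and IFIT1 is at 1.78 and 1.33.

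The rise was also read on the other probes. Of the 15 probes 14 passed the filter on dim signal, and the remaining TAP1 probe was above background on 3 arrays. In late against early sham scar 13 of the 14 were higher and 1, an OAS2 probe above background on 15 arrays, was at -0.08. The further probe of IFIT1 gave 1.01 ± 0.26 (adjusted p = 0.0133 over 24508 probes), that of CXCL10 1.23 ± 0.44 (adjusted p = 0.0555) and that of IFIH1, above background on 12 arrays, 0.25 ± 0.14 (adjusted p = 0.209). Probes of 1 gene read the same RNA on the same arrays and are not replicates.

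Slide could be checked within 1 slide, the one that held both groups. There the mean of the late sham biopsies 49L hyper and 50L hypo was above the early sham biopsy 49L hypo by 1.53 for IFIT1, 2.01 for ISG15, 1.23 for IFIH1, 0.75 for CXCL10, 0.996 for OAS2, 0.58 for TAP1 and 0.27 for IRF9. For CXCL10 the late sham biopsy 50L, at -1.50, was itself below the early biopsy, at -0.82. With slide as a fixed block IFIT1, ISG15 and IFIH1 were called, as were 5.72% of all features, with CXCL10 at 1.73 (adjusted p = 0.177) and TAP1 at 0.78 (adjusted p = 0.142). The background correction mattered more. Without a cap on extreme local backgrounds IFIT1 was called (1.21, adjusted p = 0.0294), ISG15 was 1.53 (adjusted p = 0.0857), CXCL10 1.19 (adjusted p = 0.415), IFIH1 0.54 (adjusted p = 0.227) and TAP1 0.28 (adjusted p = 0.398). The features called fell from 3735 to 11, or 0.0586%.

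The next question was how scar compared with control skin. In early scar IRF9 and OAS2 were already higher than in control skin and the other 5 genes were not called. By late scar 5 genes were called, all higher: OAS2, ISG15, IFIT1, IRF9 and IFIH1. These are broad comparisons in which many genes differ, so the counts are to be read beside the share of all features. That share was 38.9% in early, 33.8% in mid and 39.7% in late scar. All 3 comparisons use the same 4 control biopsies.

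OAS2 was at -1.24 and -0.64 in the control biopsies of animal 49 and at -1.55 and -0.38 in those of animal 50. All early sham biopsies lay above all controls for OAS2 and for IRF9, as 15.9% of all features did. The difference in early scar was 1.01 ± 0.23 for OAS2, 2.02-fold (adjusted p = 0.0017), and 0.57 ± 0.13 for IRF9, 1.48-fold (adjusted p = 0.0015). For OAS2 the mean over its 5 probes gave 0.36 (adjusted p = 0.0506). IRF9 control values were -0.70, -0.48, -1.05 and -0.37. The other 5 genes lay between -0.07 and 0.37 in early scar against control.

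In mid scar OAS2 (1.09 ± 0.23, adjusted p = 0.0015), IRF9 (0.62 ± 0.13, adjusted p = 0.0012) and ISG15 (0.85 ± 0.31, adjusted p = 0.0416) were higher than in control skin. With 1 array removed ISG15 missed the threshold in 9 of 12 fits, with values from 0.67 to 1.08 over the 12, and held without control 49L, mid pressure hyper 50R or mid sham hypo 49L. In late scar the differences were 1.30 ± 0.23 for OAS2 (adjusted p = 2.17e-04), 1.32 ± 0.31 for ISG15 (adjusted p = 0.0023) and 1.15 ± 0.20 for IFIT1 (adjusted p = 1.66e-04). IRF9 was at 0.74 ± 0.13 (adjusted p = 1.51e-04) and IFIH1 at 0.71 ± 0.20 (adjusted p = 0.0094). Without control biopsy 50L, the lowest of the 4 for all 7 genes, IFIH1 missed the threshold (0.60, adjusted p = 0.0522).

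CXCL10 in late scar was 1.22 ± 0.53 above control (adjusted p = 0.0747), and TAP1 was 0.41 ± 0.21 above it (adjusted p = 0.12). CXCL10 passed without control biopsy 50R (1.61, adjusted p = 0.0327) or late sham hypo 50L (1.71, adjusted p = 0.0041), and TAP1 passed without late sham hyper 50L (0.53, adjusted p = 0.0431). With the late sham biopsies alone 6 of 7 genes and 34.4% of all features were called against control. With the late pressure biopsies alone 3 of 7, namely IRF9, OAS2 and IFIT1, and 31.9% of all features were called, so that this count is near the background. All 4 late sham biopsies were above all 4 controls for IRF9, IFIT1, OAS2 and ISG15, as was so for 19.0% of all features. Late against mid scar, both treatments pooled, called 0 of 7 genes and 0.00533% of all features. IFIT1 came nearest there (0.82 ± 0.16, adjusted p = 0.129), and 2 of 7 genes and 2157 features had an unadjusted p under 0.05.

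Pressure was compared with sham at matched phase. In late scar all 7 genes were lower in pressure than in sham biopsies, with differences from -0.13 to -1.71, but 0 of 7 were called and 0% of all features were. At an unadjusted p under 0.05 there were 5 of the 7 genes and 1060 features, 499 of them lower. The median of the 7 genes was -0.72 and that of all features 0.01. The test therefore did not separate late pressure from late sham scar for any single gene at this number of biopsies.

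IFIT1 showed the clearest separation. Its late pressure values were 0.29 and -0.09 in animal 49 and 0.19 and 0.17 in animal 50, all below the lowest late sham value of 0.71. Of all features 0.799% had late sham above late pressure in every biopsy. The difference was -1.07 ± 0.23 (unadjusted p = 1.47e-04, adjusted p = 0.44). ISG15 was 0.74 and 1.89 in animal 49 and 0.83 and 0.75 in animal 50 under pressure, so 1 pressure biopsy, hypo 49R, overlapped with sham. The difference was -1.19 ± 0.36 (adjusted p = 0.867).

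CXCL10 lay in a narrow band in late pressure scar, at -1.0, -1.31, -1.24 and -1.27, with an SD of 0.14 against 1.74 in late sham scar. The difference was -1.71 ± 0.62 (adjusted p = 0.867). IFIH1 was 0.07, 0.25, 0.12 and 0.08 under pressure, a difference of -0.72 ± 0.24, and OAS2 was -0.19, -0.37, 0.01 and 0.50, a difference of -0.71 ± 0.27. Both had an adjusted p of 0.867. TAP1 (-0.41 ± 0.24) and IRF9 (-0.13 ± 0.15) overlapped widely, and without both late sham 49L biopsies they turned to 0.0863 and 0.0475.

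In animal 49 alone 6 of 7 genes were called in late pressure against late sham scar, all lower, along with 988 features (5.47%). In animal 50 alone 0 of 7 genes and 0% of features were called. With 1 animal alone each late set of a treatment and pigmentation held 1 biopsy. The calls in both of these fits therefore rest on the spread among control and early biopsies only. They do not measure the spread among late sham or late pressure biopsies. The difference between animals in the pressure effect was not tested. On the 1 slide that held both groups, the mean of the 2 late sham biopsies was above the late pressure biopsy by 0.09 for IRF9 to 1.67 for ISG15. The late sham biopsy 50L was itself below it for IRF9, TAP1 and CXCL10.

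In mid scar 0 of 7 genes and 0% of features were called for pressure against sham. TAP1 was at -0.62 ± 0.24 (unadjusted p = 0.0171, adjusted p = 0.999), with mid pressure values of -0.17, 0.28, -0.25 and 0.06. The other 6 genes lay between -0.05 and 0.21. The change of the pressure difference from mid to late scar was tested directly and called 0 of 7 genes and 0% of features. IFIT1 was at -1.12 ± 0.33 (unadjusted p = 0.0025, adjusted p = 0.974), and 4 of 7 genes and 876 features had an unadjusted p under 0.05. Over both phases, pressure minus sham was below 0 for all 7 genes, with 0 of 7 and 0% of features called. IFIT1 was at -0.51 ± 0.16 and TAP1 at -0.52 ± 0.17, both with adjusted p = 0.905.

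Side could be checked in the 12 early and control biopsies, which hold both sides without pressure. There right minus left lay between -0.38 for ISG15 and 0.02 for IRF9, with 0 of 7 genes and 0% of features called. At an unadjusted p under 0.05 there were 0 of the 7 genes and 483 features. In early scar alone the mean of all 7 genes was lower on the right, the side that carried pressure later, for example -1.52 against -0.89 for CXCL10 and 0.44 against 0.93 for ISG15. In control skin 5 of the 7 genes were higher on the right, and ISG15 and IFIH1 were lower. Hyper and hypopigmented scar, 12 biopsies each, differed by -0.12 to 0.06 over the 7 genes. Here 0 of 7 genes and 0.0160% of features were called, and 0 of 7 genes and 463 features had an unadjusted p under 0.05. A further title code runs in step with pigmentation, so these cannot be told apart.

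The other genes of the pathway were followed in lists by role. Of 113 listed genes 50 were measured, and in late against early sham scar 11 rose and 1 fell. Among all features 19.9% were called, 1812 higher and 1923 lower, so the number of pathway genes called is near the background. The counts by role that follow are to be read beside the same share. The median difference of the 50 genes was 0.30. None of the 5 measured receptor chains was called, nor was IFNE, the one ligand measured. IFNE was above background on only 4 of 28 arrays, so its ratios lie near the floor. The interferon genes IFNA1, IFNB1, IFNG and IFN-DELTA-1 were above background on at most 1 of 28 arrays and were left out.

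Of the signalling genes 2 of 7 rose: IRF1 (0.92 ± 0.21, adjusted p = 0.0054), an early-induced activator, and IRF7 (0.65 ± 0.16, adjusted p = 0.0086), which amplifies type I interferon. Of 9 sensors and adaptors only TMEM173 rose, the gene of the DNA-sensing adaptor STING (0.40 ± 0.11, adjusted p = 0.0194). Of 11 antiviral effectors 3 rose, the guanylate-binding proteins GBP2 (0.85 ± 0.15, adjusted p = 0.0011) and GBP1 (1.20 ± 0.25, adjusted p = 0.0037), and RSAD2 (1.18 ± 0.27, adjusted p = 0.0059), whose product viperin blocks viral replication. MX1 was at 0.86 ± 0.31 (adjusted p = 0.0574).

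Of 11 class I presentation genes 4 rose. These were the immunoproteasome subunits PSMB9 (1.19 ± 0.27, adjusted p = 0.0061) and PSMB8 (0.72 ± 0.21, adjusted p = 0.0211), the proteasome activator PSME1 (0.46 ± 0.15, adjusted p = 0.039) and the class I light chain B2M (0.94 ± 0.33, adjusted p = 0.0473). None of 3 further chemokines was called, with CCL5 at 0.89 ± 0.43 (adjusted p = 0.141). Among 3 negative regulators NFKBIA, the inhibitor of NF-kappaB, rose (0.82 ± 0.21, adjusted p = 0.0114), and SOCS3, an inhibitor of cytokine receptors, fell (-0.40 ± 0.11, adjusted p = 0.0175).

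**Figure D4:**
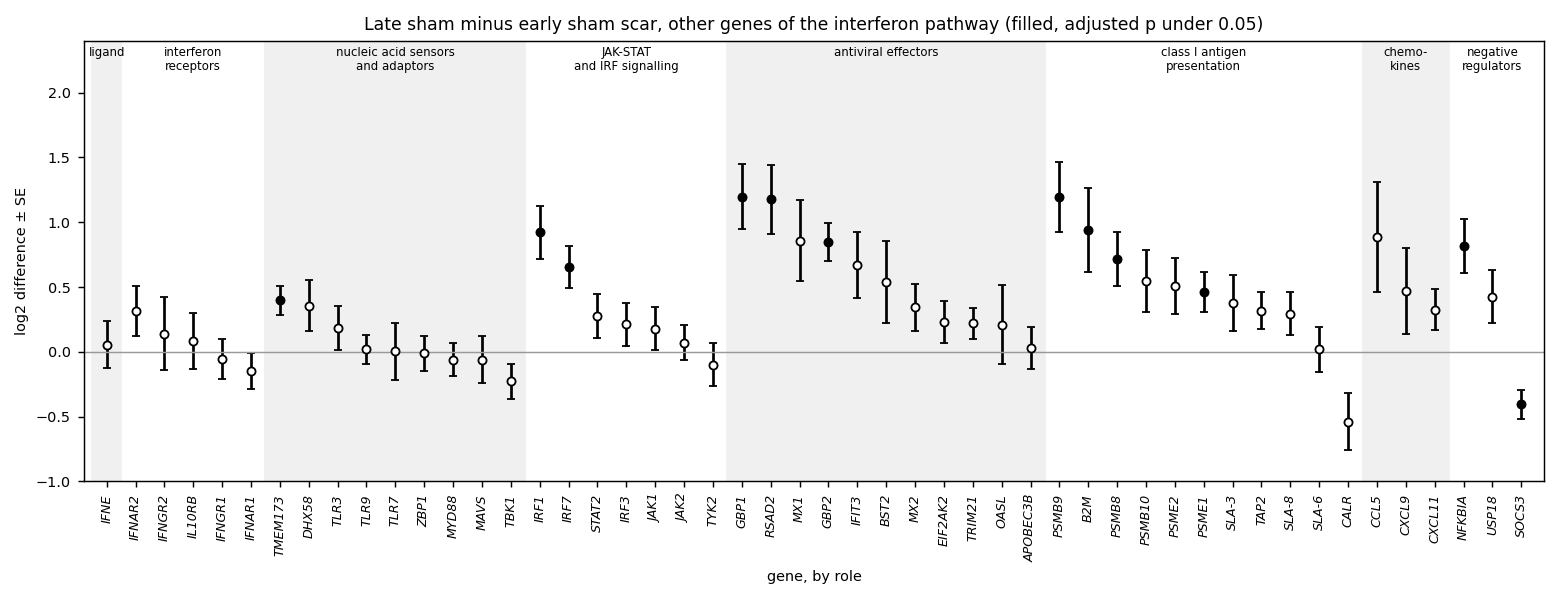
Log2 difference ± SE (vertical axis) of late sham minus early sham scar for 50 other genes of the interferon pathway, grouped by role; filled points passed an adjusted p of 0.05. The 11 filled points above 0 belong to signalling, effector, antigen presentation, adaptor and regulator genes, and none belongs to the receptors.

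Against control skin the picture differed by role. In early scar 14 of the 50 genes were higher and 1 lower, in mid scar 15 and 0, and in late scar 24 and 1. The shares of all features called were 38.9%, 33.8% and 39.7%, so the early and mid counts lie below the background. Of the 5 receptor chains 4 were higher at each phase, in early scar IFNAR2 (1.11 ± 0.19), IFNGR1 (0.91 ± 0.15), IFNGR2 (0.91 ± 0.28) and IFNAR1 (0.64 ± 0.14), with adjusted p from 1.22e-04 to 0.0143. Of the antiviral effectors 3 of 11 were higher in early, 2 in mid and 8 in late scar, the first counts below the share of all features and the last above it.

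In late pressure against late sham scar 0 of the 50 genes were called, and 16 had an unadjusted p under 0.05. Of all 18768 features 0 were called and 1060 had an unadjusted p under 0.05, 499 of them lower. IRF1 was at -0.88 ± 0.24 (adjusted p = 0.867) and GBP1 at -1.10 ± 0.29 (adjusted p = 0.857). The median of the 50 was -0.24.

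Genes of leukocytes were followed in the same comparison. Of 11 measured T and NK cell genes 4 rose from early to late sham scar: the activating receptor KLRK1 (0.67 ± 0.16, adjusted p = 0.0069), the granzymes GZMH (0.50 ± 0.14, adjusted p = 0.0145) and GZMB (0.61 ± 0.19, adjusted p = 0.0289), and CD3G, part of the T cell receptor complex (0.54 ± 0.17, adjusted p = 0.0304). Of all features 19.9% were called in that comparison, and LCK of the same list was lower, at -0.15, and not called. The mean of this list ran from -0.76 to -0.39 in early sham, from -0.40 to -0.15 in late sham and from -0.66 to -0.33 in late pressure scar. Of the listed T cell genes CD3D and CD4 did not pass the filter on dim signal.

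Of 10 macrophage and monocyte genes none was called between late and early sham scar, where 1 had an unadjusted p under 0.05. Their mean ran from -1.41 to -0.06 in early sham, from -1.32 to 0.24 in late sham and from -1.76 to -0.71 in late pressure scar. The late sham hyper and hypo biopsies 49L, highest for the 7 genes, were at 0.24 and -0.44, against -1.32 and -1.20 in the late sham biopsies of animal 50. The early sham hypo biopsy 50L, which ranked high for IFIH1 and IRF9, was at -0.06. Mid scar reached 0.14 in a sham and in a pressure biopsy, hypo 49L and hyper 50R, where the mean of the 7 genes was 0.19 and 0.21. The part of these cells in the differences was not tested.

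Fibroblast genes went the other way. Of 4 measured, the matrix genes DCN (-1.46 ± 0.40, adjusted p = 0.017) and COL1A2 (-1.89 ± 0.66, adjusted p = 0.0489) fell from early to late sham scar, and LUM (-0.82) and THY1 (-0.38) were not called. Of 6 endothelial genes only CLDN5 rose (1.08 ± 0.27, adjusted p = 0.0091), where 19.9% of all features were called. The part of these changes in the differences of the 7 genes was not tested. None of 3 dendritic cell, 3 neutrophil, 1 B cell, 1 keratinocyte, 6 melanocyte, 5 adipocyte or 9 skeletal muscle genes was called. Of 4 listed markers of plasmacytoid dendritic cells, a known source of type I interferon, 0 were matched to a probe on the array.

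**Figure D5:**
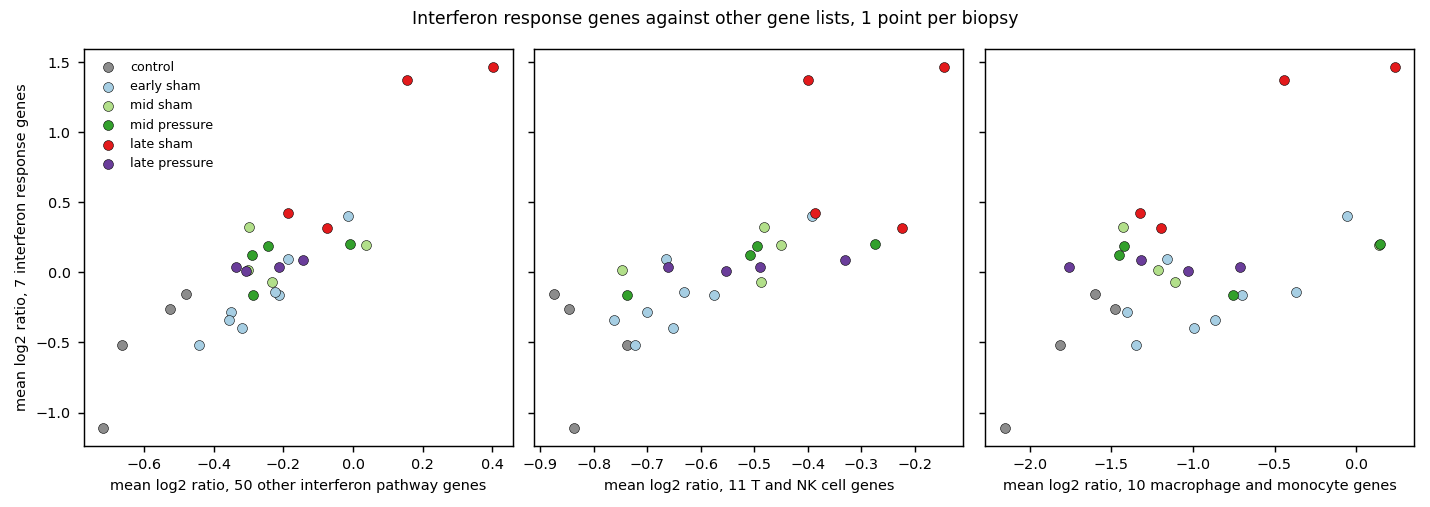
Mean log2 ratio of the 7 interferon response genes (vertical axis) against that of 50 other pathway genes, 11 T and NK cell genes and 10 macrophage and monocyte genes (horizontal axes), 1 point per biopsy, coloured by group. The late sham biopsies of animal 49 stand apart at 1.46 and 1.37, and late pressure biopsies lie between 0.01 and 0.09.

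The 7 genes varied together over the biopsies. Over 28 arrays the Pearson correlation of their log2 ratios was 0.46 to 0.86 for the 21 pairs (median 0.64). After the group and animal means were taken out it was 0.27 to 0.82 (median 0.63). The closest pairs were IFIT1 with IFIH1 (0.86) and ISG15 with IFIH1 (0.86), and CXCL10 with TAP1 after the means were removed (0.82). The points share animals, slides and the reference RNA, so these are descriptions. A mean per animal over all groups does not take out a difference between the animals in late sham scar alone. On the mean of the 7 genes, each centred and scaled, the late sham biopsies 49L stood at 2.36 (hyper) and 2.05 (hypo). The next biopsy was at 0.61. How far these biopsies set the correlations here and below was not tested.

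The named genes whose pattern over the 28 arrays was most like the mean of the 7 were PARP12 (r = 0.92), PSMB9 (0.89), MX1 (0.88), RSAD2 (0.87), the lymphoid chemokine CCL19 (0.85), GBP1 (0.84), IRF1 (0.84) and LOC733579 (0.82). The median over 2639 named features was 0.0035. Of the 8 genes 5 belong to the pathway lists above, and PARP12, CCL19 and LOC733579 do not.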

How the data were processed

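Each array carried 1 biopsy (Cy5) against a pig reference RNA (Cy3), with no dye swap, and ratios are Cy5 over Cy3. The deposited scanner files hold intensity values from Agilent Feature Extraction 10.7.1.1, per the file headers and the submitters' processing notes. The deposited value table holds log2 ratios. On each array 100% of its probes matched the processed Cy5 over Cy3 signals to within 0.001, so it is not centred (column medians 0.0129 to 0.260). It served as an alternative.

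Median signals were corrected with normexp (offset 50) and loess in limma 3.58.1 (R 4.3.3). Local backgrounds were capped at their 99th percentile per array and channel, since 14 of 28 arrays held a background over 100 times that value. Without the cap the lowest SD of log2 ratios on an array was 0.396, against 0.861 with it. Spots flagged as outliers were left out (0.531% of values were then missing). Probes well above background on at least 4 arrays were kept, and the brightest stood for its gene.

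The limma model had a mean for each of 11 groups, with animal as a fixed block, since both animals are in every group. The Benjamini-Hochberg adjustment ran over all 18768 features. The fit was tested on simulated data, where 43 to 49 of 50 features changed by 1 or 2 (log2) were recovered in late against early sham scar, with 16408 features tested. Of 198 features called there 13 were false. The simulated noise was independent, without animal, slide or background effects, so it does not show the recovery on the real arrays. No 2 arrays held identical values (highest correlation 0.954). 1 gene of the lists is not reported here. The members and lists were chosen with earlier results of these data known. Beside the 7 genes, up to 4 genes of lowest p per list and comparison were named, and the 8 genes most correlated with the 7. Alternatives were the background cap, scanner signals, normalization, the filter, the probe rule, slide, no animal block, each animal alone and each array left out. The number of arrays limits the precision.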

Additional observations from a re-analysis of the deposited data

Results flagged for a closer look

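Of 42 sets of values, 7 genes in 6 groups of 4 to 8 biopsies, 2 held a biopsy far from the rest by Dixon's test. Chance alone sets apart about 1 in 20 such sets. ISG15 was at 1.89 (log2 ratio) in the late pressure hypo biopsy 49R, with the nearest of the other 3 at 0.83. IFIH1 was at 0.53 in the early sham hypo biopsy 50L, with the nearest of the other 7 at -0.14.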

How the results depend on the processing

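Without the animal as a replicate block the members called were 2, 3 and 5 in early, mid and late scar against control, 1 and 5 in mid and late against early sham scar and 0 for pressure, as with it. Late against early sham scar went from 5 to 1 without the background cap, 3 with slide as a fixed block, 1 in animal 50 alone, 0 with late pressure in place of late sham and 1 without both late sham 49L biopsies, the last 2 alternatives chosen after seeing the data. Leaving out 1 array gave 3 to 6, with 3 without either late sham 49L biopsy. Mid against early sham scar went from 1 to 0 without the cap, without the filter, with slide fixed or in animal 50 alone, to 2 in animal 49 alone, and was 0 to 1 with 1 array left out. Early against control gave 1 with the mean of all kept probes and 0 in animal 50 alone, mid against control 0 in animal 50 alone, and late against control 3 in animal 50 alone and 3 with late pressure biopsies only. With 1 animal alone each mid and late group held 1 biopsy. Calls in those fits rest on the spread among control and early biopsies only. With late pressure in place of late sham, CXCL10 turned to -0.0038 and OAS2 to -0.0726. Late pressure minus sham turned to 0.10 for IRF9 and 0.23 for TAP1 in animal 50 alone, and to 0.0475 and 0.0863 without both 49L biopsies. With 1 array left out it was -0.28 to 0.0148 for IRF9. Pressure over both phases was 0.0521 for TAP1 in animal 50 alone. All features called in late against early sham scar went from 3735 to 11 without the cap, 1073 with slide fixed, 1037 in animal 50 alone and 2124 without both 49L biopsies. In mid against early sham scar they went from 1210 to 2, 211, 4 (animal 50) and 2510 (animal 49). Against control in animal 50 alone they were 2836, 1740 and 4530 in early, mid and late scar. With slide fixed they were 4148 in mid scar, and in animal 49 alone 4911 in late scar. With 1 array left out, late against early sham scar called 2148 (without late sham hyper 50L) to 3667 features, mid against early 30 (without mid sham hypo 49L) to 1787, and mid against control 3895 (without control 50L) to 6587. Counts of features called in 1 animal alone carry the limit given above. An animal or biopsies left out mean fewer samples, and for the other settings the cause was not tested.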
